A study of Homo sapiens with 21 samples.

Results

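Drug-metabolizing enzymes outside the CYP1 family were followed over a range of caffeine doses in HepG2, an established cell line from a human liver tumour. The set was taken by gene family name: cytochromes P450 of the CYP2, CYP3A and CYP4 families (without CYP2R1), the UDP-glucuronosyltransferases UGT1A, UGT2A and UGT2B, the sulfotransferases SULT1 and SULT2, the glutathione S-transferases GSTA, GSTK, GSTM, GSTO, GSTP, GSTT, GSTZ and MGST, and NAT1, NAT2, XDH, EPHX1 and POR. Of 37637 features in the count table, 109 matched these names, 32 were dropped as pseudogenes and 32 were dropped for not reaching 10 counts in at least 3 of the 21 libraries. The 45 genes that remained hold 14 of oxidation, 7 of glucuronidation, 10 of sulfation, 13 of glutathione conjugation and 1 of acetylation. At the edge of the rule, UGT1A6 reached 10 counts in 3 libraries and was kept, while UGT2B15 and CYP3A4 reached it in 2 libraries and were not.

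The cells were kept for 6 h in medium without serum that held caffeine at 0, 0.01, 0.1, 1, 10, 100 or 1000 µM, and mRNA purified by its poly(A) tail was sequenced in 3 libraries of each dose and counted per gene. The 0 µM group is the control and differs from the others only in the caffeine, as far as the sample labels say. The series calls the 3 libraries of a dose biological replicates, and whether they came from separate cultures is not given in the sources used here.

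The liver clears drugs in steps. P450 enzymes of the endoplasmic reticulum, fed with electrons by POR, oxidise lipophilic compounds, and transferases then attach glucuronic acid, sulfate, glutathione or an acetyl group so that the product can be exported. Caffeine itself is mainly demethylated by CYP1A2, with CYP2A6, XDH and NAT2 acting on its metabolites, and many of these genes are controlled by the receptors AHR, PXR (NR1I2) and CAR (NR1I3) or by the oxidative stress factor NRF2 (NFE2L2).

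Library totals ran from 28043623 to 40827833 counts, with a median of 32497612, and genes of the mitochondrial genome took 4.95% to 14.2% of them. Levels are given as CPM, a gene's counts relative to its library's TMM-scaled total, in which 3 counts, the limit that a count of 0 allows, equal 0.0739 to 0.107 CPM (counting error only). Of 8 hepatocyte markers, ALB, AFP, APOB and SERPINA1 lay between 1963 and 11772 CPM in every library and APOA1 between 643 and 2090 CPM, while HNF4A (312 to 397 CPM), TTR (72.0 to 128 CPM) and FGB (42.2 to 62.0 CPM) were lower. Of 8 markers of other cell types, 6 had at most 6 counts in any library, among them PTPRC of leukocytes and COL1A2 of fibroblasts, the latter at 0 throughout. The others, CD68 and KRT19, ran from 53.4 to 108 CPM and from 96.4 to 229.6 CPM. The summed level of the 8 markers was 289 to 301 CPM at 0 µM and 191 to 245 CPM at 1000 µM, where KRT19 was lower (log2 fold change -0.58 ± 0.19 SE, adjusted p = 0.0199), and its part in the results was not tested.

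Without caffeine the most abundant genes of the set were conjugating enzymes. Per kilobase of transcript, the measure used here to compare levels between genes, GSTO1 stood first with 226 CPM per kilobase, followed by MGST1 with 199, SULT1A4 with 193, SULT1A1 with 188 and SULT1A3 with 134. POR came sixth with 93.7. The highest P450 was CYP2W1, an enzyme best known from fetal and tumour tissue, with 35.7 CPM per kilobase, and CYP3A5 followed with 9.22. UGT2B7 and UGT2A3 led the glucuronosyltransferases with 61.5 and 42.4, while UGT1A1, the bilirubin-conjugating enzyme, had 0.127 and UGT1A6 had 0.0922.

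**Figure D1:**
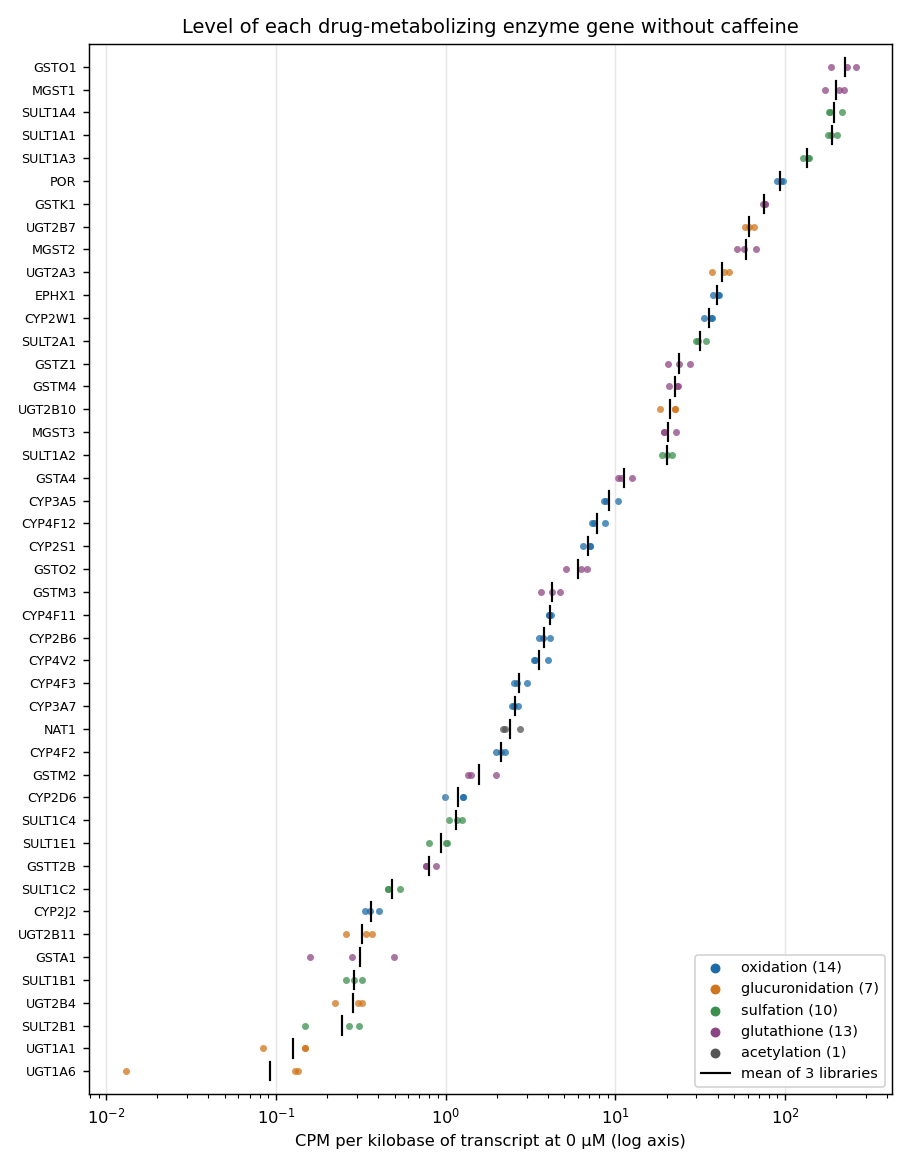
Level of each of the 45 genes at 0 µM in CPM per kilobase of transcript (log axis), with a point for each of the 3 libraries, a line at their mean and colours for the role. The genes span from 0.0922 (UGT1A6) to 226 CPM per kilobase (GSTO1), and the P450s lie in the middle and lower part of the order.

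Several enzymes that define drug metabolism in the adult liver were close to the limit of detection in this line. CYP3A4, the main P450 of adult liver, had 1 to 10 counts per library. CYP2C8 had 1 to 8 counts, CYP2E1 0 to 9 and CYP2A6 0 to 1. GSTP1, which normal adult hepatocytes largely lack, had 0 to 4 counts. Of 2 enzymes of caffeine's later metabolism, NAT2 had 0 to 6 counts and XDH 0 to 1. All of these genes were below the count minimum and were not tested. NAT1, the acetyltransferase that remained, is described with the genes that passed no test.

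The comparison of each dose with 0 µM asked which of these genes changed with caffeine. At 1000 µM, 24 of the 45 genes passed an adjusted p of 0.05 (quasi-likelihood test of edgeR, Benjamini-Hochberg adjusted over 17468 features), 7 higher and 17 lower. Of all features tested, 20.6% were higher and 20.6% lower. The median log2 fold change of the 45 genes was -0.37, beside -0.03 for all features. Split by role, 10 of 13 glutathione genes passed (1 higher, 9 lower, median -0.61), 8 of 14 oxidation genes (5 higher, 3 lower, median 0.03), 5 of 10 sulfation genes (1 higher, 4 lower, median -0.31) and 1 of 7 glucuronidation genes (lower, median -0.44). These are levels in RNA from whole cultures, in which fewer cells of a type and less RNA per cell cannot be told apart. When 1 library was left out, between 16 and 23 of the genes passed, beside 28.8% to 38.6% of all features (41.2% in the main fit). Both were lowest without 1000 µM replicate 3.

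**Figure D2:**
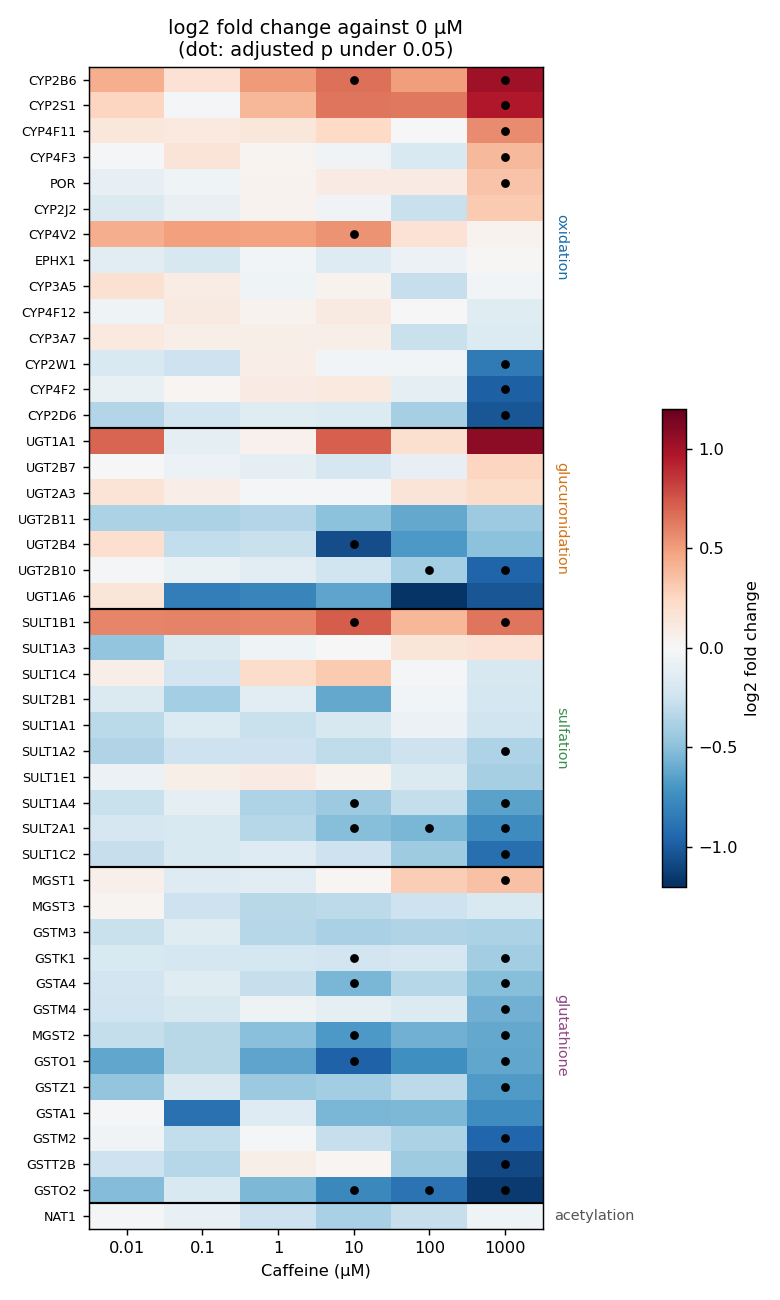
log2 fold change against 0 µM of each of the 45 genes (rows, by role) at the 6 caffeine doses (columns), with a dot where the adjusted p is under 0.05. Of the dots, 24 lie at 1000 µM, 11 at 10 µM and 3 at 100 µM, and the glutathione genes are blue but for MGST1 in the column of 1000 µM.

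Among the P450s, CYP2B6 and CYP2S1 rose most at 1000 µM. CYP2B6 oxidises drugs such as bupropion and efavirenz and is a well-known target of CAR. It measured 10.9, 12.7 and 11.6 CPM in the controls, 14.8, 16.2 and 18.9 CPM at 100 µM, and 27.6, 19.1 and 24.7 CPM at 1000 µM. The libraries with 10 µM had 21.2, 21.1 and 13.4 CPM. All libraries at these 3 doses lay above the 3 controls. Those at 1000 µM lay above those at 100 µM and overlapped those at 10 µM, whose mean of 18.5 CPM was above the 16.6 CPM at 100 µM. At 1000 µM the rise was 2.02-fold (log2 fold change 1.02 ± 0.21 SE, adjusted p = 0.000833). The rise at 10 µM passed too (log2 fold change 0.66), but not when any 0 µM library or 10 µM replicate 1 or 2 was left out. With the mitochondrial share as a covariate, the rise at 10 µM was 0.43 (adjusted p = 0.0264). CYP2B6 was also above the controls in all libraries of 0.01 µM, at 14.8 to 16.8 CPM. Those at 1 µM overlapped the controls, at 11.4, 16.8 and 22.2 CPM, the last in a library with a mitochondrial share of 14.2%. The differences at 0.01, 1 and 100 µM did not pass. Against the mean of 0.01, 0.1 and 1 µM, the log2 fold change at 1000 µM was 0.64 (adjusted p = 0.00543). The 1000 µM libraries overlapped those of these low doses.

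CYP2S1, a P450 of epithelia outside the liver and a known AHR target, was also above the controls at 10, 100 and 1000 µM. Its libraries gave 17.9, 19.6 and 19.7 CPM in the controls, 25.8, 30.8 and 32.3 CPM at 100 µM, and 45.7, 31.0 and 35.3 CPM at 1000 µM. Those with 10 µM had 34.8, 32.7 and 22.1 CPM. The libraries of the 3 doses lay above all controls and overlapped each other. The rise at 1000 µM was 1.95-fold (log2 fold change 0.97 ± 0.24, adjusted p = 0.00341), and the differences at 10 and 100 µM did not pass. At 1 µM the single library of replicate 3 stood apart at 37.4 CPM, beside 16.0 and 22.4 CPM in the others, and that library had the largest mitochondrial share of all, 14.2%. With the mitochondrial share as a covariate the log2 fold change at 1000 µM was 0.82 for CYP2S1 and 0.87 for CYP2B6, with adjusted p of 0.000805 and 4.55e-05.

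The CYP4F genes, omega-hydroxylases of fatty acids, vitamin K and leukotrienes that lie together on chromosome 19, moved in both directions. CYP4F2, which hydroxylates vitamin K and arachidonic acid, measured 5.08, 4.76 and 5.39 CPM in the controls, 4.92, 4.96 and 4.26 CPM at 100 µM, and 2.55, 2.86 and 2.28 CPM at 1000 µM. The 1000 µM libraries lay below all 18 others. The fall was 1.98-fold (log2 fold change -0.98 ± 0.14, adjusted p = 4.14e-05). The neighbour CYP4F11, 14302 bases away in RefSeq, measured 12.9, 12.8 and 13.1 CPM in the controls, 12.6, 12.7 and 13.5 CPM at 100 µM, and 16.4, 19.9 and 21.0 CPM at 1000 µM. All 1000 µM libraries exceeded the controls (log2 fold change 0.56 ± 0.12, adjusted p = 0.00148).

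CYP4F3, which inactivates leukotrienes, also rose. It gave 13.2, 12.7 and 15.2 CPM in the controls, 12.2, 12.1 and 11.9 CPM at 100 µM, and 16.2, 19.2 and 18.6 CPM at 1000 µM. The 1000 µM libraries lay above the controls and those at 100 µM below them. At 1000 µM the difference passed (log2 fold change 0.39 ± 0.14, adjusted p = 0.0284), but the adjusted p ran from 0.0695 to 0.106 without 0 µM replicate 1 or 2 or without 1000 µM replicate 2 or 3. CYP4F12, with 15.0 to 17.8 CPM in the controls, had 13.9 to 15.0 CPM at 1000 µM and did not pass (-0.14 ± 0.09, adjusted p = 0.197).

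The stretch before the start of CYP4F2 and of CYP4F11 is shown because these neighbours moved in opposite directions. The RefSeq sequences (GRCh38.p14, minus strand, 250 bases ending just before the first listed start, 5′ to 3′) were aligned, and 170 of 270 columns were identical (63.0%). CYP4F2 is chr19:15898075-15898324 and CYP4F11 is chr19:15934868-15935117, and capitals mark a match to TGACNNNGC on either strand, the core bound by NRF2.
CYP4F2: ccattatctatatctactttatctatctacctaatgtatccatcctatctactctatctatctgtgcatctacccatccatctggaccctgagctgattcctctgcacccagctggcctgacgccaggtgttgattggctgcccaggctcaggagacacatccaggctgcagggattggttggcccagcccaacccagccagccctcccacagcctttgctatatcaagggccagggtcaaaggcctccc
CYP4F11: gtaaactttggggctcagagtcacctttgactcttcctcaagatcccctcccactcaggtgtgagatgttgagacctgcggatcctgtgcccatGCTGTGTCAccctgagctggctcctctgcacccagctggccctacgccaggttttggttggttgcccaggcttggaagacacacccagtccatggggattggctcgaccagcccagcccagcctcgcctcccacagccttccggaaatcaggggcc
CYP4F11 holds a match that begins 156 bases before the start and reads on the opposite strand, and CYP4F2 holds none in this window. Neither holds GCGTG, the core bound by AHR with ARNT.

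**Figure D3:**
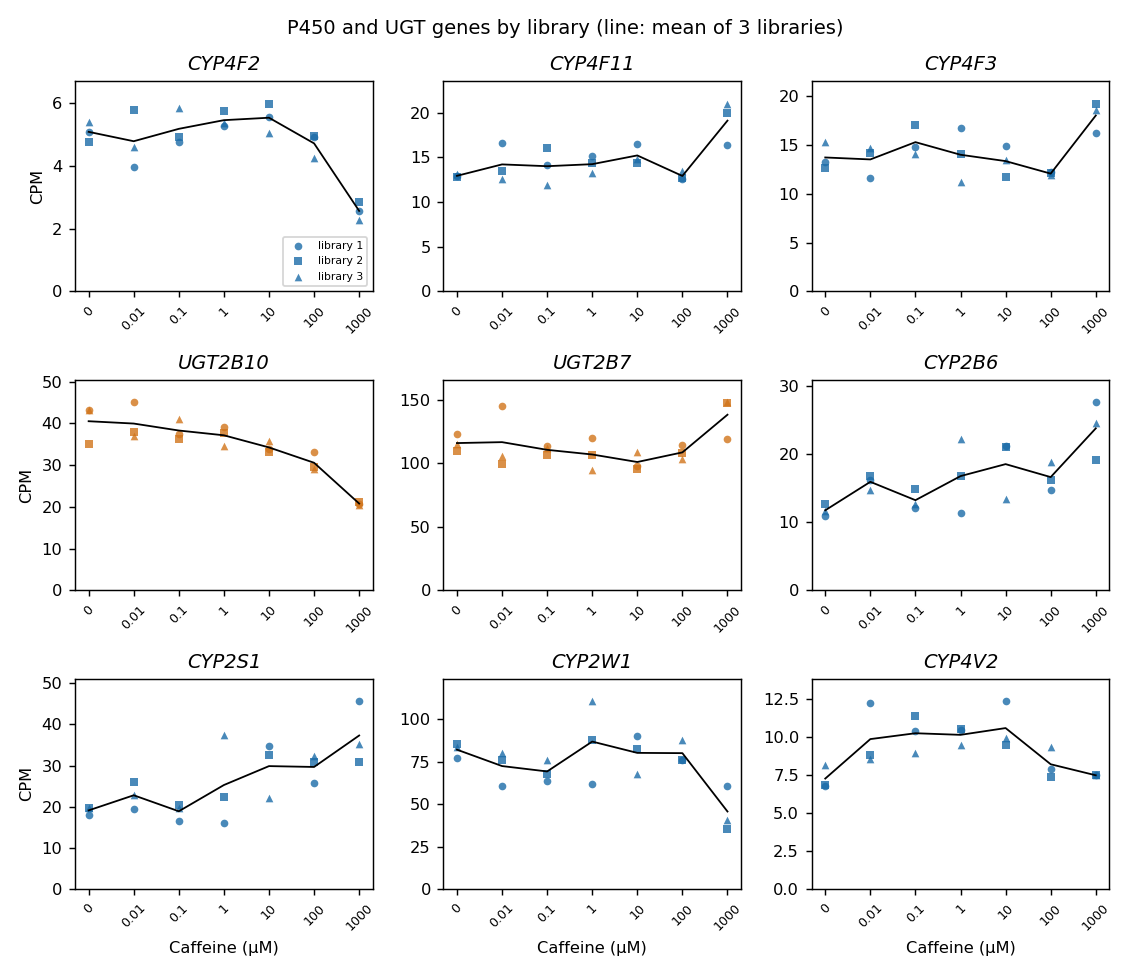
CPM in each library (points, shaped by replicate) and the mean of 3 libraries (line) for 9 P450 and UGT genes at the 7 caffeine doses, on axes that start at 0. At 1000 µM CYP4F2 (2.28 to 2.86 CPM) and UGT2B10 (20.4 to 21.3 CPM) lie below every other library, while CYP4F11 lies at 16.4 to 21.0 CPM.

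CYP2W1 and CYP2D6 were the other P450s that fell. CYP2W1 measured 77.0, 85.6 and 83.9 CPM in the controls, 76.3, 76.4 and 87.7 CPM at 100 µM, and 61.0, 35.5 and 40.6 CPM at 1000 µM. All 1000 µM libraries were below the controls and those of 100 µM, with replicate 1 nearest to them (log2 fold change -0.85 ± 0.19, adjusted p = 0.0022).

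CYP2D6, which oxidises codeine and many antidepressants, was low in this line. Its libraries gave 1.67, 2.12 and 2.14 CPM in the controls, 1.34, 1.69 and 1.46 CPM at 100 µM, and 0.997, 1.13 and 0.761 CPM at 1000 µM. The 1000 µM libraries lay below the controls, with a log2 fold change of -1.03 ± 0.23 (adjusted p = 0.0016). CYP2D6 resembles the neighbouring pseudogene CYP2D7, and the counting could split reads between them. In the sum of both, a measure chosen after the data were seen, the log2 fold change was -0.52 (adjusted p = 0.0192).

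POR, the electron donor of all microsomal P450s, was slightly higher at the top dose. It measured 239, 243 and 227 CPM in the controls, 242, 257 and 260 CPM at 100 µM, and 342, 266 and 293 CPM at 1000 µM. The groups at 0 and 1000 µM did not overlap, with a log2 fold change of 0.35 ± 0.13 (adjusted p = 0.0374). This was close to the threshold: the adjusted p was 0.0512 with the mitochondrial share as a covariate and 0.0674 to 0.123 without any 0 µM library or without 1000 µM replicate 1 or 3. POR overlaps TMEM120A on the opposite strand, and whether the counting used strand is not given in the sources used here.

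Other oxidation genes gave no difference at 1000 µM that passed. EPHX1, the microsomal epoxide hydrolase, measured 72.8, 67.6 and 71.7 CPM in the controls, 67.4, 68.2 and 66.5 CPM at 100 µM, and 81.1, 65.1 and 67.6 CPM at 1000 µM. The groups overlapped (log2 fold change 0.01 ± 0.13, adjusted p = 0.953). CYP3A5, CYP3A7, CYP2J2, CYP4F12 and CYP4V2 had log2 fold changes from -0.17 to 0.32, and CYP3A7 shares its strand with a readthrough transcript.

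CYP4V2, a fatty acid hydroxylase, was higher at the lower doses than at either end of the range. The controls gave 6.76, 6.86 and 8.14 CPM. The libraries at 0.01 µM gave 12.2, 8.79 and 8.51 CPM, those at 0.1 µM 10.4, 11.3 and 8.94 CPM, those at 1 µM 10.4, 10.5 and 9.44 CPM, and those at 10 µM 12.3, 9.43 and 9.93 CPM. Every library of these 4 doses lay above every control. The values of 7.90, 7.35 and 9.32 CPM at 100 µM overlapped the controls, as did those of 7.45, 7.46 and 7.48 CPM at 1000 µM. Only at 10 µM did the difference from 0 µM pass (log2 fold change 0.54 ± 0.15, adjusted p = 0.0147, and not passing without 0 µM replicate 1 or 2 or 10 µM replicate 1), and 1000 µM was below the mean of 0.01, 0.1 and 1 µM by -0.43 ± 0.12 (adjusted p = 0.0115, and not passing without 1000 µM replicate 3). CYP4V2 overlaps KLKB1 on the same strand.

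Of the glucuronosyltransferases, UGT2B10 alone passed at 1000 µM. UGT2B10 attaches glucuronic acid to the nitrogen of nicotine and of tertiary amine drugs. It measured 43.3, 35.1 and 43.2 CPM in the controls, 33.8, 33.2 and 35.8 CPM with 10 µM, 33.1, 29.6 and 29.04 CPM with 100 µM, and 20.7, 21.3 and 20.4 CPM at 1000 µM. The libraries at 100 µM and at 1000 µM lay below all controls, and those at 1000 µM below all 18 others. UGT2B10 changed by -0.41 ± 0.10 on the log2 scale at 100 µM (adjusted p = 0.0274) and by -0.96 ± 0.10 at 1000 µM (adjusted p = 1.33e-06). The call at 100 µM ended without a filter on low counts and when any 0 µM library or 100 µM replicate 2 or 3 was left out.

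UGT2B7, which conjugates morphine and lies on the same stretch of chromosome 4, did not share this fall. It measured 123, 110 and 115 CPM in the controls, 114, 108 and 104 CPM at 100 µM, and 119, 147 and 148 CPM at 1000 µM. The groups overlapped through replicate 1 at 1000 µM, and the log2 fold change of 0.25 ± 0.13 did not pass (adjusted p = 0.112). Against the mean of the 3 lowest doses it was 0.31 ± 0.10 and passed (adjusted p = 0.0244), though not without 1000 µM replicate 2 or 3 or with only the groups compared.

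The windows before UGT2B10 and UGT2B7 are given because they belong to 1 gene family and only UGT2B10 passed at 1000 µM. They lie at chr4:68815744-68815993 and chr4:69096224-69096473 (RefSeq, GRCh38.p14, plus strand, 5′ to 3′), and 168 of 268 aligned columns were identical (62.7%). Capitals mark a match to TGACNNNGC on either strand.
UGT2B10: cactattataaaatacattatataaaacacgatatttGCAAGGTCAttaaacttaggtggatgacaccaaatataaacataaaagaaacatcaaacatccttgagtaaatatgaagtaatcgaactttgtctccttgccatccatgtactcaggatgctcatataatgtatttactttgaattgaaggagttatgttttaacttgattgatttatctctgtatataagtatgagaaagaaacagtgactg
UGT2B7: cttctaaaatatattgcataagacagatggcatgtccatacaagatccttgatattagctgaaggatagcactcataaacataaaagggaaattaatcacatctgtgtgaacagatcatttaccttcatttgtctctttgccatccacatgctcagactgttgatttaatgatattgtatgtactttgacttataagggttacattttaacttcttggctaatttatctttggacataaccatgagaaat
UGT2B10 has a match 213 bases before the start, and UGT2B7 has none in its window. The window of UGT2B11 is 90.2% identical to that of UGT2B10 and also holds a match, 217 bases before the start. UGT2B11 had only 9 to 31 counts per library, and its log2 fold change of -0.44 ± 0.41 did not pass.

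The remaining glucuronosyltransferases were either abundant and close to the controls or at low counts. UGT2A3, at 109 to 138 CPM in the controls and 111 to 165 CPM at 1000 µM, changed by 0.22 ± 0.17 (adjusted p = 0.302). UGT1A1, with 2 to 35 counts, had the highest estimate of the 45 genes, 1.07 ± 0.52, and did not pass (adjusted p = 0.105). UGT1A6 had 0 to 12 counts, and both share exons with the rest of the UGT1A locus. UGT2B4 had 7 to 23 counts and passed only at 10 µM, where it fell by 1.06 on the log2 scale (SE 0.33, adjusted p = 0.0286). That call ended with DESeq2, without a filter on low counts, and when any 0 µM library or 10 µM replicate 1 or 2 was left out.

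Glutathione S-transferases were mostly lower at 1000 µM against 0 µM. GSTO2, an omega-class enzyme that reduces dehydroascorbate, had the largest change. It measured 7.99, 7.34 and 6.00 CPM in the controls, 4.11, 4.03 and 3.39 CPM at 100 µM, and 2.87, 3.84 and 2.88 CPM at 1000 µM. Both doses lay below all controls. On the log2 scale GSTO2 changed by -0.78 ± 0.17 at 10 µM (adjusted p = 0.00597), -0.89 ± 0.17 at 100 µM (adjusted p = 0.0152) and -1.15 ± 0.17 at 1000 µM (2.21-fold lower, adjusted p = 6.23e-05). The call at 10 µM held in all 13 alternatives, and that at 100 µM ended without 0 µM replicate 1 or 2 or 100 µM replicate 2 or 3.

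GSTO1 lies 1728 bases from GSTO2 and is the most abundant of the set per kilobase. It gave 254, 225 and 181 CPM in the controls, 166, 125 and 136 CPM with 0.01 µM, 91.7, 106 and 137 CPM with 10 µM, 150, 136 and 110 CPM with 100 µM, and 119, 187 and 122 CPM with 1000 µM. The libraries at 0.01, 10 and 100 µM lay below all controls, but 1000 µM replicate 2 lay among them. GSTO1 changed by -0.97 ± 0.24 on the log2 scale at 10 µM (adjusted p = 0.00933) and -0.62 ± 0.24 at 1000 µM (adjusted p = 0.042). The call at 10 µM ended without 0 µM replicate 1 or 10 µM replicate 1. The call at 1000 µM was close to the threshold: its adjusted p was 0.0502 with another scaling (RLE, by size factors), 0.0554 with the replicate number as a block and 0.0938 to 0.167 without 0 µM replicate 1 or 2 or 1000 µM replicate 1 or 3.

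GSTM2, a mu-class enzyme of muscle and brain, was low. It measured 1.57, 2.29 and 1.63 CPM in the controls, 1.28, 1.34 and 1.58 CPM at 100 µM, and 0.968, 0.886 and 0.983 CPM at 1000 µM. The 1000 µM libraries lay below all 18 others, with a log2 fold change of -0.95 ± 0.18 (adjusted p = 0.000386). GSTM2 overlaps GSTM1 and GSTM4 on its strand. GSTM4 fell by 0.58 on the log2 scale (SE 0.15, adjusted p = 0.00506), from 29.3 to 33.1 CPM in the controls to 19.9 to 21.8 CPM.

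GSTZ1 isomerises maleylacetoacetate in the breakdown of tyrosine. Its libraries gave 36.6, 31.5 and 27.4 CPM in the controls, 27.8, 26.7 and 22.5 CPM at 100 µM, and 21.4, 20.9 and 17.3 CPM at 1000 µM. The top dose lay below all controls (log2 fold change -0.68 ± 0.16, adjusted p = 0.00252). GSTZ1 and POMT2 overlap on opposite strands.

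The membrane-bound transferases MGST1 and MGST2 went apart. MGST1, which protects membranes from peroxidation, measured 216, 167 and 202 CPM in the controls, 249, 250 and 220 CPM at 100 µM, and 231, 251 and 267 CPM at 1000 µM. Both doses lay above all controls, with a log2 fold change of 0.35 ± 0.11 at 1000 µM (adjusted p = 0.0152, but 0.094 without 0 µM replicate 2 and 0.0713 without 1000 µM replicate 3). MGST2, which can make leukotriene C, gave 85.7, 72.9 and 66.5 CPM in the controls, 56.2, 51.1 and 43.9 CPM at 100 µM, and 42.9, 61.6 and 43.0 CPM at 1000 µM. Both doses lay below the controls. At 1000 µM MGST2 changed by -0.61 ± 0.18 on the log2 scale (adjusted p = 0.0136, and 0.0688 to 0.0733 without 0 µM replicate 1 or 1000 µM replicate 1 or 3), and MGST2 overlaps MAML3 on the opposite strand.

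Among the other glutathione genes, GSTK1, the mitochondrial and peroxisomal enzyme, had control libraries close to each other. It measured 79.1, 77.4 and 79.3 CPM in the controls, 62.8 to 73.3 CPM in the 9 libraries of 0.01, 0.1 and 1 µM (median 67.7), and 57.7, 61.9 and 57.4 CPM at 1000 µM. All libraries with caffeine, whatever the dose, lay below all controls. GSTK1 changed by -0.23 ± 0.08 on the log2 scale at 10 µM (adjusted p = 0.0353) and -0.41 ± 0.08 at 1000 µM (adjusted p = 0.000344). The call at 10 µM ended when any 1 of the 6 libraries was left out, with the replicate number as a block, and without a filter on low counts.

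GSTA4, which clears lipid aldehydes, fell by 0.51 on the log2 scale (SE 0.18, adjusted p = 0.0253), and its adjusted p was 0.0516 to 0.149 without 0 µM replicate 1 or 3 or 1000 µM replicate 1 or 3. GSTT2B, at 4 to 51 counts, fell by 1.09 (SE 0.41, adjusted p = 0.0409), a call lost without any control library or 1000 µM replicate 1 or 3 (adjusted p 0.0734 to 0.168), and also without the filter on low counts or with only the groups compared. GSTM3 (-0.38 ± 0.17), MGST3 (-0.18 ± 0.16) and GSTA1 (-0.75 ± 0.60, 1 to 15 counts) did not pass.

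**Figure D4:**
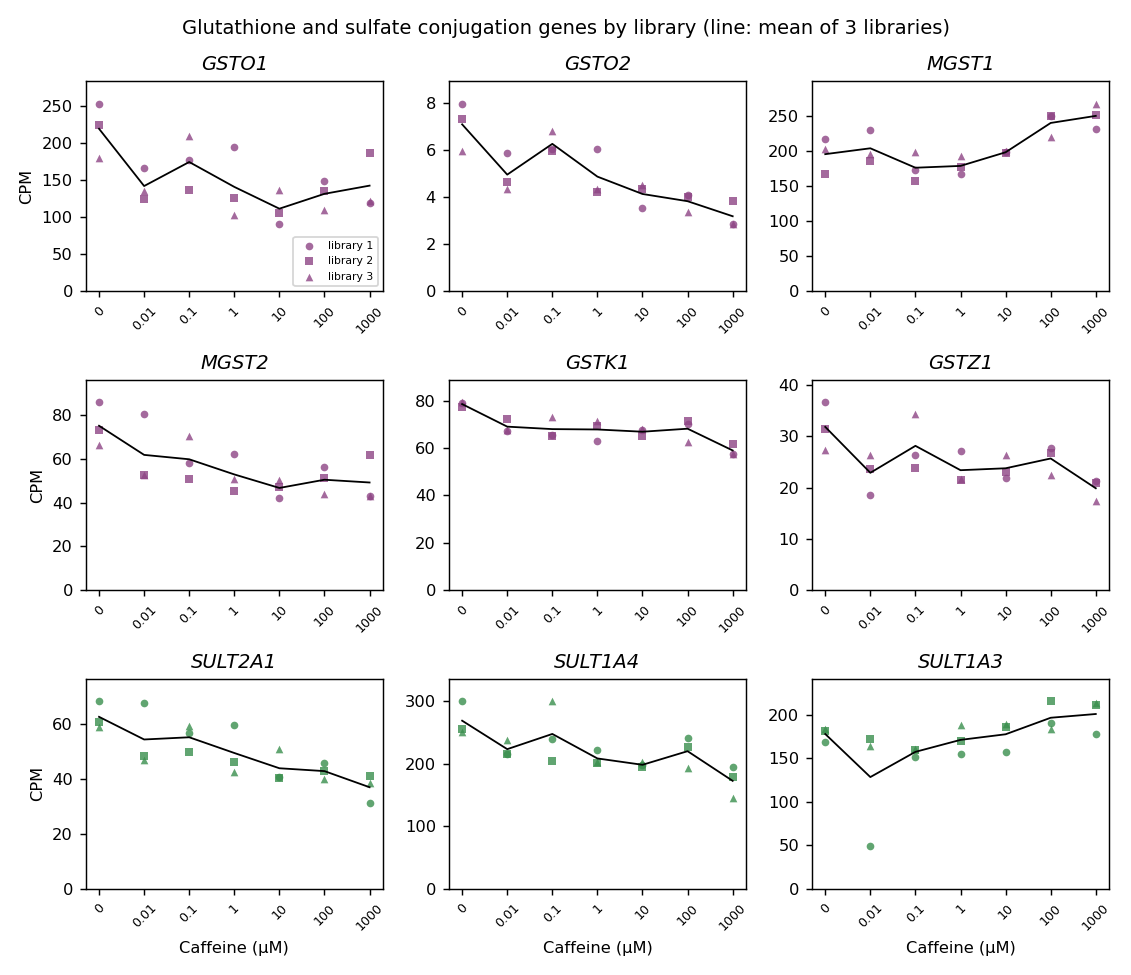
CPM in each library (points, shaped by replicate) and the mean of 3 libraries (line) for 9 genes of glutathione and sulfate conjugation at the 7 caffeine doses, on axes that start at 0. GSTK1 and GSTO2 have their lowest means at 1000 µM, MGST1 lies at 231 to 267 CPM there, and SULT1A3 has a single low library of 49.2 CPM at 0.01 µM.

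Of the sulfotransferases, SULT2A1 and SULT1C2 fell at 1000 µM against 0 µM in all fits tried. SULT2A1 sulfates dehydroepiandrosterone and bile acids. It measured 68.3, 60.6 and 58.9 CPM in the controls, 40.7, 40.2 and 50.8 CPM with 10 µM, 45.9, 42.8 and 39.9 CPM with 100 µM, and 31.2, 41.1 and 38.7 CPM at 1000 µM. All libraries of these 3 doses lay below all controls. Its log2 fold change was -0.51 ± 0.15 at 10 µM (adjusted p = 0.0241), -0.55 ± 0.15 at 100 µM (adjusted p = 0.0434) and -0.76 ± 0.15 at 1000 µM (adjusted p = 0.00078). The call at 100 µM ended when any 1 of the 6 libraries was left out, with the replicate number as a block, and without a filter on low counts. That at 10 µM ended without 0 µM replicate 1 or 2 or 10 µM replicate 1 or 2.

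SULT1C2, an enzyme of phenolic substrates, was at the low end of the set. It gave 1.27, 1.51 and 1.28 CPM in the controls, 0.962, 0.992 and 1.06 CPM at 100 µM, and 0.733, 0.763 and 0.666 CPM at 1000 µM. The libraries at 1000 µM lay below all 18 others, and those at 100 µM below the controls. For SULT1C2 the log2 fold change at 1000 µM was -0.90 ± 0.19 (adjusted p = 0.000913).

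SULT1B1, which sulfates thyroid hormones, was the sulfotransferase that rose. It measured 2.27, 1.83 and 2.04 CPM in the controls, 2.48, 2.80 and 2.86 CPM at 100 µM, and 2.64, 2.93 and 4.03 CPM at 1000 µM. Both doses lay above the controls, as did all libraries at 0.01, 0.1 and 10 µM. SULT1B1 changed by 0.73 ± 0.25 on the log2 scale at 10 µM (adjusted p = 0.0455) and 0.64 ± 0.25 at 1000 µM (adjusted p = 0.0487). The call at 10 µM ended with the block or the mitochondrial covariate and without any 0 µM library or 10 µM replicate 1 or 2. At 1000 µM it was not past the threshold with the replicate number as a block (adjusted p = 0.0584), with the mitochondrial share as a covariate (0.0715), or without any 0 µM library or 1000 µM replicate 2 or 3 (0.0523 to 0.227).

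SULT1A3 and SULT1A4, which sulfate dopamine and other catecholamines, are nearly identical copies on chromosome 16, and their promoter windows match in all 250 bases. SULT1A4 measured 300, 255 and 251 CPM in the controls, 241, 226 and 193 CPM at 100 µM, and 194, 178 and 145 CPM at 1000 µM. The groups at 0 and 1000 µM did not overlap (log2 fold change -0.64 ± 0.13, adjusted p = 0.000818). SULT1A3 measured 169, 181 and 184 CPM at 0 µM and 178, 210 and 213 CPM at 1000 µM, a change of 0.18 ± 0.27 that did not pass (adjusted p = 0.631). The counting could split reads between the copies. With both summed, a measure chosen after the data were seen, the log2 fold change was -0.26 and no longer passed (adjusted p = 0.104). Against the mean of 0.01, 0.1 and 1 µM, SULT1A4 alone passed (-0.39, adjusted p = 0.0109) and the sum did not (-0.02, adjusted p = 0.918). The copies were not summed in the other comparisons. Each copy also overlaps a readthrough transcript with its SLX1 neighbour.

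SULT1A2 fell by 0.37 on the log2 scale (SE 0.11, adjusted p = 0.012), from 24.8 to 28.4 CPM in the controls to 17.8 to 22.0 CPM, a call lost without the filter on low counts, without 0 µM replicate 2 (adjusted p = 0.056) or without 1000 µM replicate 3 (0.0815). SULT1A1, the main phenol sulfotransferase of liver, measured 333 to 376 CPM at 0 µM and 270 to 319 CPM at 1000 µM. These groups did not overlap, but the change of -0.24 ± 0.13 did not pass (adjusted p = 0.135). SULT1E1, SULT1C4 and SULT2B1 had log2 fold changes from -0.40 to -0.19 and did not pass.

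NAT1, which acetylates aromatic amines, gave no difference that passed at any dose. It measured 6.22, 5.09 and 4.98 CPM in the controls, 4.60, 4.43 and 4.44 CPM at 100 µM, and 4.40, 6.03 and 5.29 CPM at 1000 µM. The libraries at 100 µM lay below the controls, while those at 1000 µM overlapped them (log2 fold change -0.05 ± 0.16, adjusted p = 0.837).

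The doses below 1000 µM gave fewer calls, and not in the order of dose. At 10 µM, 11 of the 45 genes passed, 3 higher (CYP2B6, CYP4V2 and SULT1B1) and 8 lower (GSTA4, GSTK1, GSTO1, GSTO2, MGST2, SULT1A4, SULT2A1 and UGT2B4), beside 11.3% of all features higher and 10.7% lower. This count depended on single libraries, as did the share of all features called, 22.0% in the main fit. The count was 1 without 0 µM replicate 1 (7.07% of all features) or without 10 µM replicate 1 (8.03%). It was 4 without 10 µM replicate 2 (10.3%), 5 without 0 µM replicate 2 (11.6%) and 7 without 0 µM replicate 3 (19.2%). At 100 µM, 3 genes passed, all lower (GSTO2, SULT2A1 and UGT2B10), beside 2.74% of all features higher and 3.27% lower. That count was 0 without 0 µM replicate 1 or 2 or without 100 µM replicate 2 or 3, beside 0.146% to 0.264% of all features. It was 1 without 0 µM replicate 3, beside 6.36%.

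At the 3 lowest doses no gene of the set passed edgeR's test. Of all features, edgeR called 2.87% higher and 2.08% lower at 0.01 µM, and 0% at 0.1 and 1 µM. An unadjusted p under 0.05 was reached at 0.01 µM by 9 of the 45 genes (20%) and 26.1% of all features, at 0.1 µM by 4 (8.89%) and 15.2%, and at 1 µM by 12 (26.7%) and 22.8%. DESeq2 called 4 of the 37 genes to which it gave an adjusted p at 0.01 µM, beside 15.9% of all features. Its calls were 1 of 40 at 0.1 µM, beside 3.49%, and 2 of 36 at 1 µM, beside 10.7%. Without 1 µM replicate 1, 4 genes and 7.09% of all features passed at 1 µM. The median log2 fold change of the glutathione genes against 0 µM was -0.24, -0.21 and -0.28 at 0.01, 0.1 and 1 µM, and -0.39 and -0.36 at 10 and 100 µM. All these values share the 3 control libraries.

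A second reference for the top dose was the mean of 0.01, 0.1 and 1 µM, which uses no control library but shares the 1000 µM libraries with the comparison above. Against it 20 of the 45 genes passed, 7 higher and 13 lower, beside 16.2% of all features higher and 14.0% lower. CYP4F2 was lower by nearly the same amount with this reference (-0.996 ± 0.12, adjusted p = 6.7e-06), as were UGT2B10 (-0.89 ± 0.08, adjusted p = 3.37e-07) and GSTM2 (-0.83 ± 0.15, adjusted p = 0.000357). MGST1 was higher by 0.43 ± 0.09 (adjusted p = 0.00117), with its 1000 µM libraries above all 9 of the reference.

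Several genes moved little against this reference. GSTO1 differed by -0.09 ± 0.19 (adjusted p = 0.763), MGST2 by -0.24 ± 0.15 (adjusted p = 0.255) and SULT1B1 by 0.05 ± 0.20 (adjusted p = 0.873). SULT1A2, lower against 0 µM, differed by -0.09 (adjusted p = 0.504). The median of the 13 glutathione genes was -0.30, and 4 of them were lower and 1 higher, beside 14.0% and 16.2% of all features. GSTZ1 (-0.31, adjusted p = 0.0809), GSTA4 (-0.30, 0.132) and GSTT2B (-0.92, 0.0548), lower against 0 µM, did not pass here. In the 9 libraries of these low doses, GSTO1 ran from 103 to 210 CPM with a median of 137, and SULT1B1 from 1.96 to 4.17 CPM with a median of 3.03. For both, the 1000 µM libraries overlapped this range. Among all 45 genes, 14 of the 24 calls against 0 µM held in all fits tried, as did 11 of the 20 calls against the low doses.

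**Figure D5:**
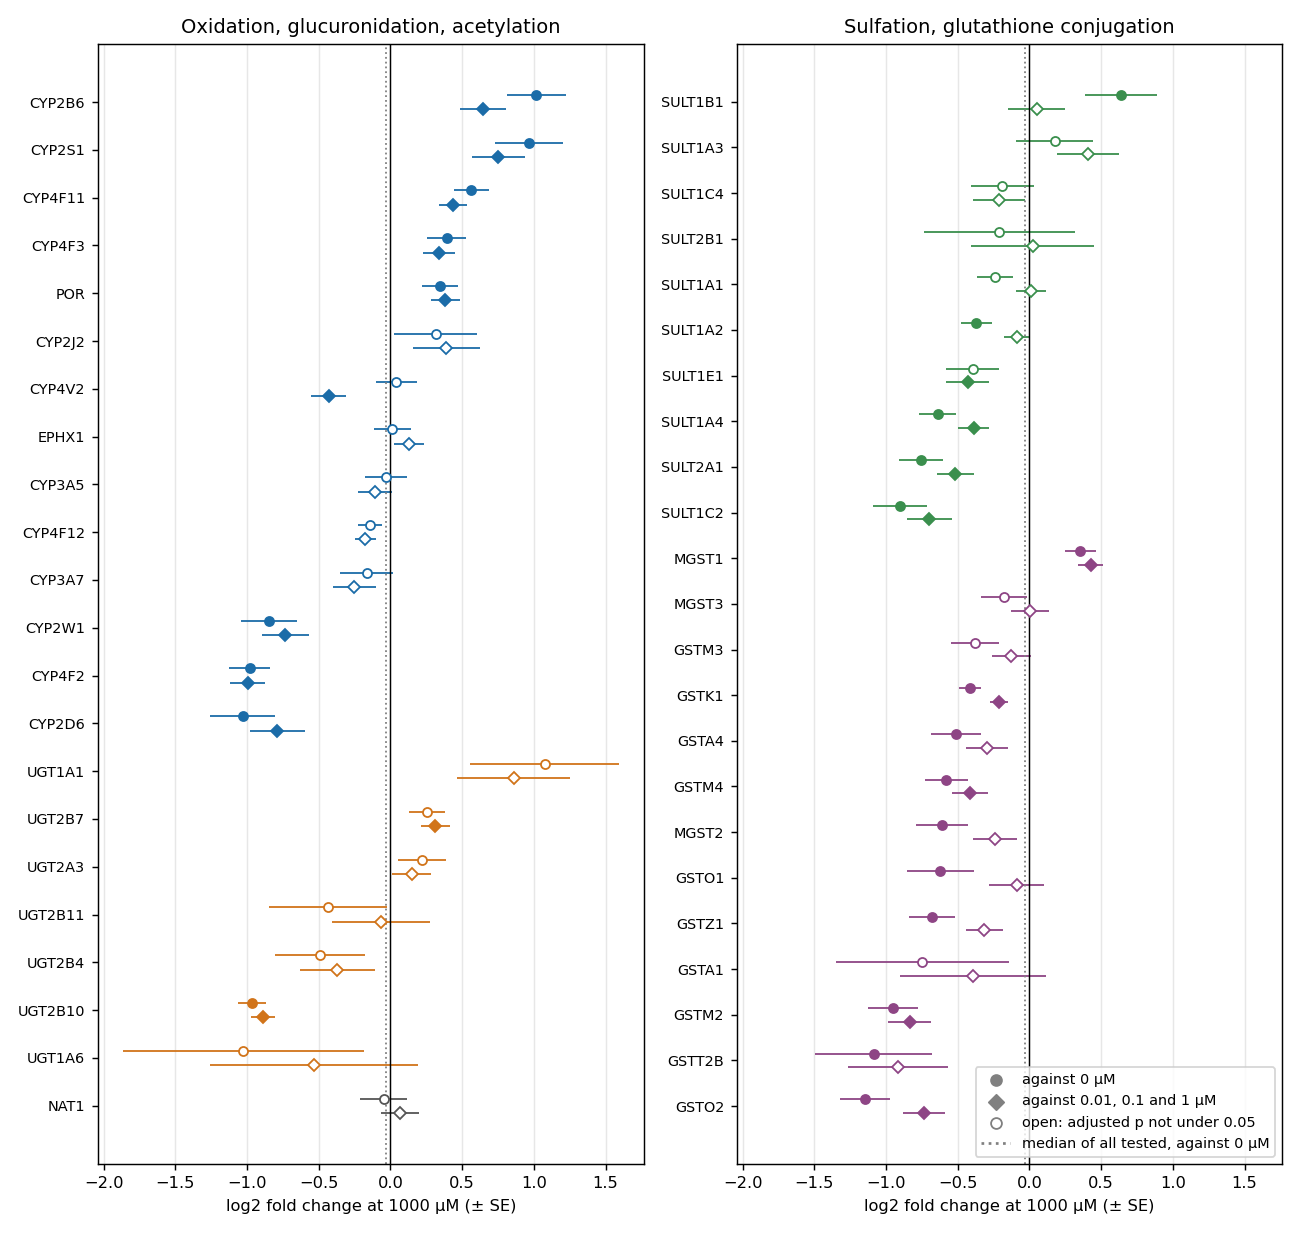
log2 fold change at 1000 µM with its SE for each of the 45 genes against 0 µM (circles) and against the mean of 0.01, 0.1 and 1 µM (diamonds), filled where the adjusted p is under 0.05. The dotted line is the median of all features against 0 µM (-0.03). CYP4F2, UGT2B10 and GSTM2 lie far left with either reference, whereas GSTO1 and SULT1B1 lie near 0 with the second.

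A test for any difference among the 7 groups called 16 of the 45 genes, beside 28.1% of all features. They were CYP2B6, CYP2D6, CYP2S1, CYP2W1, CYP4F11, CYP4F2 and CYP4V2 of the P450s, UGT2B10, the sulfotransferases SULT1A4, SULT1C2 and SULT2A1, and GSTK1, GSTM2, GSTO2, GSTZ1 and MGST1. Without 1000 µM replicate 3 the count was 7, beside 17.2% of all features.

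Genes that control or serve these enzymes were read from lists at 1000 µM against 0 µM, where again 20.6% of all features passed in each direction. Of 16 controlling factors, 5 were higher and 2 lower. The log2 fold changes of all 16 ran from -0.92 to 1.27. AHR rose from 47.0, 45.5 and 54.7 CPM to 86.9, 78.8 and 94.5 CPM (0.82 ± 0.13, adjusted p = 0.000137), and NFE2L2 from 194, 178 and 209 CPM to 332, 356 and 407 CPM (0.92 ± 0.09, adjusted p = 4.8e-07). For neither did the groups overlap. NR1I2, which encodes PXR, did not pass (-0.05 ± 0.10), nor did NR1I3, which encodes CAR and had under 1 CPM (-0.43 ± 0.32).

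Of 11 tested genes for cofactors and electron supply, 5 were higher and 2 lower. GCLC and GCLM, the subunits of the rate-limiting enzyme of glutathione synthesis, rose by 1.49 ± 0.13 (adjusted p = 1.71e-07) and 1.64 ± 0.16 (adjusted p = 1.03e-06). In the same comparison 9 of the 13 glutathione genes of the set were lower and 1 higher. Against 0.01, 0.1 and 1 µM, 4 of these 13 were lower and 1 higher. UGDH, which makes the glucuronic acid donor, rose by 0.72 ± 0.10 (adjusted p = 2.71e-05). CYB5A, an electron donor to some P450s, fell by 0.45 (SE 0.14, adjusted p = 0.0144).

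Among 10 tested transporters, 5 were higher and 2 lower. The log2 fold changes of all 10 ran from -1.52 to 0.92. ABCC2, the canalicular exporter of conjugates, rose by 0.92 ± 0.16 (adjusted p = 0.00018) and the uptake carrier SLC22A7 fell by 0.93 (SE 0.13, adjusted p = 2.58e-05). Of 18 other enzymes of drug metabolism, 5 were higher, led by ALDH3A1 (1.35 ± 0.17, adjusted p = 1.17e-05), and 3 were lower, led by CBR1 (-0.93 ± 0.13, adjusted p = 4.35e-05). For scale, CYP1A1 rose by 3.80 ± 0.12 (adjusted p = 3.78e-13), beside at most 1.02 among the called genes of the set.

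A promoter window was found for 36 of the 45 genes among 27305 in the RefSeq table (GRCh38.p14), and both strands were searched. TGACNNNGC lay in 8 of the 36 (22.2%) and in 11.0% of all windows of the same length. GCGTG lay in 8 of the 36 (22.2%) and in 31.9% of all windows. No gene of the set held both. By direction at 1000 µM, TGACNNNGC lay in 2 of 6 higher genes (CYP2B6 and CYP4F11) and in 4 of 13 lower genes (GSTA4, GSTO1, SULT1C2 and UGT2B10), and GCGTG in 0 of 6 higher and 3 of 13 lower genes (CYP2W1, GSTM4 and GSTZ1). These are matches of letters in a 250-base window and do not show binding.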

How the data were processed

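RNA was counted per gene in 21 HepG2 libraries. The authors deposited 1 table of whole-number read counts, not normalized. The submitters' processing notes name HISAT2, DESeq2 and GRCh38, without roles. The counting program, annotation and use of strand are not given in the sources used here. Of 42 per-sample columns, 21 matched the samples and were used. The other 21 were not. The series text names coumarin for the control; the sample labels, which say caffeine at 0 µM, were followed.

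Symbols came from a table of Ensembl IDs (24852 matched), and transcript lengths, overlaps and gene types from GENCODE 29. Counts were filtered (filterByExpr, minimum count 10), scaled by TMM and fitted with edgeR 4.0.16 (R 4.3.3) over 7 groups, leaving 17468 features and 14 residual degrees of freedom. The common biological coefficient of variation was 0.162. P-values were Benjamini-Hochberg adjusted over all features, with a threshold of 0.05. SEs were derived from each fold change and its F statistic. The fit was tested on simulated data.

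Genes, lists and tests were chosen with earlier results of these data known. Values in every library were given for up to 12 higher and 12 lower genes past the threshold at 1000 µM with a mean of at least 1 CPM, and for EPHX1, POR and NAT1. Alternatives were RLE scaling, DESeq2 1.42.0, other filters, a replicate block, the mitochondrial share as a covariate, only the groups compared, and each library left out.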

Additional observations from a re-analysis of the deposited data

How the results depend on the processing

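Leaving out 1 library moved the number of genes of the set past the threshold, and the share of all features called moved too. At 0.01 µM 0 to 1 genes passed (0% to 6.05% of all features), at 0.1 µM 0 to 1 (0% to 4.85%) and at 1 µM 0 to 4 (0% to 7.09%). The ranges were 1 to 11 at 10 µM (7.07% to 20.8%), 0 to 2 at 100 µM (0.146% to 6.36%) and 16 to 23 at 1000 µM (28.8% to 38.6%). They were 14 to 23 for 1000 µM against the 3 lowest doses (17.2% to 36.0%) and 7 to 21 for the 7 groups (17.2% to 35.0%). DESeq2 called 4, 1 and 2 genes at 0.01, 0.1 and 1 µM, beside 15.9%, 3.49% and 10.7% of all features, and 8 at 100 µM, beside 15.1%. A fit of the 2 groups alone called 9 at 100 µM, beside 24.7%. The cause of these changes was not tested. No log2 fold change of the set that had passed against 0 µM at 10, 100 or 1000 µM, or at 1000 µM against the 3 lowest doses, turned its sign under any setting run for it.

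No sign was seen that replicate numbers paired the libraries, and whether libraries shared a culture or batch was not tested. The correlation of deviations between same-numbered libraries ran from -0.437 to 0.249 (median 0.0199). Between other-numbered libraries it ran from -0.324 to 0.505 (median -0.00497). Of 21 libraries, 5 correlated best with their own number. With the replicate block 22 genes passed at 1000 µM (39.3% of all features) and 2 at 100 µM (2.55%). It called 20 against the 3 lowest doses (28.2%) and 15 among the 7 groups (23.1%). The calls the block ended at 1000 µM against 0 µM were those of GSTO1 and SULT1B1. UGT1A1 (2 to 35 counts), UGT1A6 (0 to 12), GSTA1 (1 to 15) and SULT2B1 (1 to 14) had few counts, which limits the precision of their values.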
